A study of Mus musculus with 17 samples.

Results

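Golm1, Ly6d, Krt8, Krt18 and Krt23 are 5 genes grouped here as injury markers, and they were followed by name through the 23461 genes counted in sorted mouse hepatocytes. Golm1 and Ly6d had been chosen because they rose after carbon tetrachloride (CCl4), so their CCl4 values are given as a description with no test. All 5 genes passed the filter on low counts, which left 13721 genes. Hepatocytes were isolated by flow sorting from male mice of 2 to 3 months, in 4 groups: 5 wild type untreated, 5 wild type CCl4, 4 Yap/Taz KO untreated and 3 Yap/Taz KO CCl4 samples. CCl4 is a solvent that hepatocytes turn into a toxic radical, and it was given at 1 ug/g in 7 doses, one every 3 days, with cells collected 3 days after the last dose. Yap/Taz KO means loss of Yap1 and Wwtr1 (Taz), the transcriptional co-activators of the Hippo pathway. The labels state neither the alleles nor the Cre driver nor which cells lost the genes. The labels number samples within a group and say that the numbers pair nothing. They do not say that the samples are separate animals, so p-values measure the spread between these samples.

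Keratins are intermediate filament proteins that assemble as pairs of a type I and a type II chain. Krt8 (type II) and Krt18 (type I) form the only keratin filaments of a normal adult hepatocyte, protect it from mechanical and toxic stress, and are the keratins of the Mallory-Denk bodies seen in chronic liver injury. Krt23 is a type I keratin known as a stress-induced gene in liver. Golm1 encodes GP73, a Golgi membrane protein that is cleaved and secreted and is measured in serum as a marker of liver disease. Ly6d encodes a small GPI-anchored surface protein of the Ly6 and uPAR family, known as a marker of lymphoid and squamous epithelial cells.

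On mm10 with GENCODE M21 annotation, Krt8 (ENSMUSG00000049382) lay at chr15:101996698-102004482 on the minus strand and Krt18 (ENSMUSG00000023043) at chr15:102028180-102032027 on the plus strand. Their starts were 23698 bases apart and pointed away from each other. Golm1 (ENSMUSG00000021556) lay at chr13:59634626-59675811, Ly6d (ENSMUSG00000034634) at chr15:74762056-74763620 and Krt23 (ENSMUSG00000006777) at chr11:99477974-99493137, all on the minus strand. The sequences just before the starts of Krt8, Krt18 and Golm1 are shown because the first pair moved together and Golm1 was higher after CCl4 in both genotypes. They are from RefSeq on GRCm38.p6, written 5′ to 3′ on the gene's strand and ending at the base before the GENCODE start. Krt8 covers chr15:102004483-102004592, Krt18 chr15:102027966-102028179 and Golm1 chr13:59675812-59676034.
Krt8: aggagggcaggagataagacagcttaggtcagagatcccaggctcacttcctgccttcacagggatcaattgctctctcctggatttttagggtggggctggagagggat
Krt18: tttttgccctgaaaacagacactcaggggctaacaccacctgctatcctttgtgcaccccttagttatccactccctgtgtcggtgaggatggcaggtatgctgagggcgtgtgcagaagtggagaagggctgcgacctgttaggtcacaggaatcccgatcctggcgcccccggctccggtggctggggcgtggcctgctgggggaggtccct
Golm1: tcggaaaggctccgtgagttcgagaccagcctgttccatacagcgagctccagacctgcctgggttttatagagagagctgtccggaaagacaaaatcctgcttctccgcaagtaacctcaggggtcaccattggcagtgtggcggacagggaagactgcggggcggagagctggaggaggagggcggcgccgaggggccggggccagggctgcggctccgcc
RefSeq promoters were matched for 4 of the 5 genes, all but Ly6d, and 250 bases before each RefSeq start were searched on both strands. The letters searched were CATTCC (the site of TEAD, the DNA-binding partner of Yap and Taz), TGANTCA (AP-1), TGACNNNGC (the core of the antioxidant response element) and TGTTTAC (forkhead factors). These 4 motifs were in 12.6%, 6.75%, 10.2% and 3.17% of 32851 promoters, and none was in the 4 windows searched, so nothing is in capitals above.

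Totals ran from 11266420 to 24775863 counts per sample. Yap1 was at 37.4 to 73.6 CPM (counts scaled to a common library total) in the 10 wild type samples and at 0.536 to 8.04 CPM in the 7 knockout samples, and Wwtr1 at 9.86 to 23.4 and 1.20 to 7.09 CPM. Summed hepatocyte markers were high in every group (112595 to 165841 CPM). Markers of other cells were not equal between groups: the 14 macrophage markers summed to 4.03 to 17.3 CPM in wild type untreated, 12.8 to 104.5 in wild type CCl4, 1.28 to 10.4 in knockout untreated, and 117, 317 and 4949 in knockout CCl4 replicates 1, 2 and 3. That last library stood apart, with a mean correlation to its own group of 0.876 against 0.916 and 0.915 for the others. It also had 34.3% mitochondrial counts, and wild type untreated replicate 5 had 30.7%. In bulk samples, fewer cells of a type and less RNA per cell cannot be told apart.

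**Figure D1:**
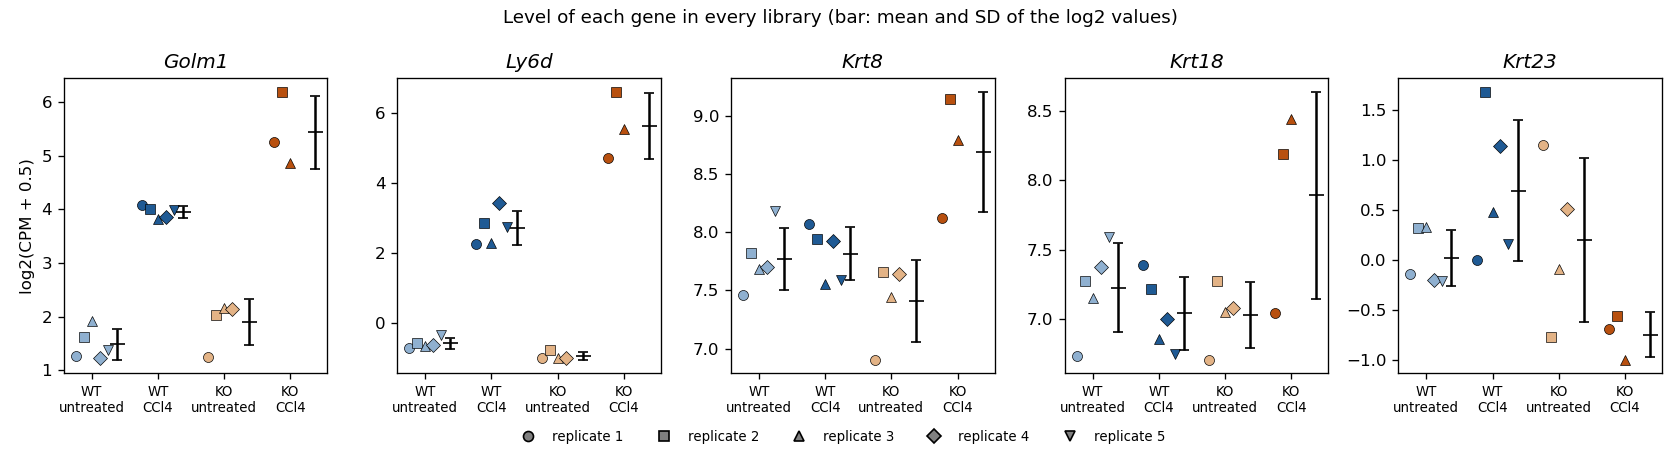
Level of Golm1, Ly6d, Krt8, Krt18 and Krt23 in each of the 17 samples as log2(CPM + 0.5) (points), by genotype and treatment (WT, wild type), with the mean and SD of these log values as bars. Golm1 and Ly6d were highest in the 3 knockout CCl4 samples, while the Krt23 group mean was lowest there.

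Golm1 was higher after CCl4 in both genotypes and highest in knockout CCl4 samples. Wild type untreated samples were at 1.92, 2.58, 3.27, 1.84 and 2.10 CPM, and wild type CCl4 samples at 16.5, 15.6, 13.6, 13.9 and 15.4 CPM. Knockout untreated samples were at 1.89, 3.59, 3.96 and 3.94 CPM, and knockout CCl4 samples at 37.7, 72.6 and 28.5 CPM. All 5 wild type CCl4 samples lay above all untreated samples, and all 3 knockout CCl4 samples lay above every wild type CCl4 sample. Over all genes tested, 3.15% were higher without overlap in wild type, 14.4% in knockout, and 10.1% in knockout over wild type after CCl4. These values are read only as background because Golm1 was chosen on these contrasts. As a ratio of group means, CCl4 over untreated was 6.40-fold in wild type and 13.8-fold in knockout. The 5 wild type CCl4 samples were close together (coefficient of variation 8.15%), and the 3 knockout CCl4 samples were not (50.3%).

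After CCl4 the ratio of knockout to wild type means was 3.09 for Golm1 (log2 difference 1.63, higher in 3 of 3 samples). It is given with no test or SE because the CCl4 samples of both genotypes entered the choice of the gene. Untreated samples of the 2 genotypes overlapped, with a log2 difference of 0.49 ± 0.28 that did not pass edgeR's quasi-likelihood test (adjusted p 0.696). The order of group means was thus wild type untreated (2.34 ± 0.593 CPM), knockout untreated (3.34 ± 0.985), wild type CCl4 (14.99 ± 1.22) and knockout CCl4 (46.3 ± 23.3), each mean ± SD (n = 5, 4, 5 and 3), and the first pair did not differ beyond their spread. Without knockout CCl4 replicate 2, the highest sample, the knockout CCl4 mean was 33.1 CPM, 2.21-fold above wild type CCl4. Among knockout CCl4 libraries Golm1 was lowest in that with the most macrophage marker counts, and the part of other cells in its level was not tested. Golm1 overlaps Naa35 on the other strand, and the strand setting of the counting is unknown. With CCl4 Naa35 went from 22.7 to 28.2 CPM in wild type (log2 difference 0.31, adjusted p 0.46) and from 31.4 to 19.7 CPM in knockout (-0.67, adjusted p 0.0495), and sharing of reads between the 2 genes was not tested.

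Ly6d was near 0 in untreated samples and higher after CCl4, most in knockout. The 5 wild type untreated samples held 11 counts in all (0.101, 0.167, 0.126, 0.147 and 0.289 CPM) and the 4 knockout untreated samples held 1 count in all, in replicate 2 (0.0856 CPM). Wild type CCl4 samples were at 4.24, 6.74, 4.35, 10.3 and 6.12 CPM, and knockout CCl4 samples at 25.7, 96.4 and 46.1 CPM. The CCl4 samples overlapped neither with untreated samples nor with the CCl4 samples of the other genotype. Over all genes tested, 3.15% were higher without overlap with CCl4 in wild type, 14.4% in knockout, and 10.1% in knockout over wild type after CCl4. These shares are read only as background, because Ly6d was chosen on these contrasts. Pooled counts were divided by the pooled scaled library totals. On that scale wild type CCl4 samples were at 37.2 times wild type untreated samples. After CCl4, knockout was at 10.3 times wild type on the same scale. No interval is given for these ratios, because Ly6d was chosen for its rise after CCl4. In knockout 3709 counts after CCl4 stood against 1 count untreated, so no ratio is given.

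Untreated, the knockout samples all lay below the wild type samples, as did 1.89% of all genes. No fold or test is given at 11 against 1 counts, since Ly6d passed the filter on low counts only through the CCl4 samples. Without knockout CCl4 replicate 2 the knockout CCl4 mean was 35.9 CPM, 5.65-fold above wild type CCl4 against 8.82-fold with it. In wild type CCl4 samples Ly6d was lowest in replicates 1 and 3, which had the least macrophage marker counts (18.9 and 12.8 CPM), and highest in replicate 4, which had the most (104.5). In knockout CCl4 samples that order did not hold, since replicate 2 was highest with 317 and replicate 3 had 4949. The part of other cells in the Ly6d level was not tested. Of the cells Ly6d is known for, summed basal and squamous epithelial markers reached at most 0.578 CPM. B lineage markers summed to 1.32 to 4.05 CPM in the untreated and wild type CCl4 groups, and to 1.02, 3.97 and 100.8 CPM in knockout CCl4 replicates 1, 2 and 3. Only replicate 3 was thus above the other groups. In knockout with CCl4, edgeR called 2 of the 3 B lineage markers tested higher, beside 12.1% of all genes. Jchain was at a mean of 26.6 CPM (SD 44.3, log2 change 6.20, adjusted p 0.00302) and Cd22 at 3.83 CPM (SD 5.55, 3.67, adjusted p 0.0122). The last, Ebf1, was at 0.282 CPM in knockout CCl4 and was not called (-1.35, adjusted p 0.295). Ighm was at 2.06, Cd79b at 1.55, Cd79a at 0.365 and Ms4a1 at 0.0525 CPM there.

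Golm1 and Ly6d varied together across the 17 samples, with Pearson r 0.964 for log2(CPM + 0.5), a description that largely follows the 4 groups and has no p. Both were chosen for their rise after CCl4 in these samples. A high r between them, and the place of Ly6d among the genes nearest to Golm1, follow from that choice and support nothing. Among 8216 genes with a mean of at least 10 CPM in a group, the 5 nearest to Golm1 were H19, Ly6d, Tpm1, Maged2 and Ptgr1 (r 0.961 to 0.964), and the 5 nearest to Ly6d were Anxa2, H19, Tpm1, Slc1a4 and Cyp2a4 (0.965 to 0.981). H19 is an imprinted long non-coding RNA that is high in fetal liver, and Tpm1 encodes a tropomyosin of the actin filament.

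Krt8 and Krt18 rose with CCl4 in knockout, and in wild type neither passed the test. Krt8 was at 176, 225, 205, 208 and 289 CPM in wild type untreated samples and at 268, 245, 188, 242 and 192 CPM in wild type CCl4 samples. In knockout it was at 119, 202, 174 and 199 CPM untreated and at 279, 566 and 443 CPM after CCl4. Every knockout CCl4 sample thus lay above every knockout untreated and every wild type CCl4 sample, while the wild type groups overlapped. Of all genes tested, 14.4% were higher without overlap in the first of these comparisons and 10.1% in the second. The log2 change with CCl4 was 0.04 ± 0.20 in wild type (adjusted p 0.955) and 1.31 ± 0.24 in knockout (adjusted p 0.00149).

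Krt18 was at 106, 155, 142, 165 and 192 CPM in wild type untreated samples and at 167, 148, 115, 128 and 107 CPM in wild type CCl4 samples. In knockout it was at 104, 154, 132 and 135 CPM untreated and at 131, 292 and 347 CPM after CCl4. Knockout CCl4 replicate 1 lay inside the untreated range, and replicates 2 and 3 lay above every other sample. The log2 change with CCl4 was -0.19 ± 0.23 in wild type (adjusted p 0.756) and 0.97 ± 0.27 in knockout (adjusted p 0.0192). In wild type 0 of the 3 named keratins were called by edgeR, DESeq2 or limma-voom, none at an unadjusted p under 0.05, against 0.853% of all genes. In knockout all 3 were called by edgeR, 2 higher and 1 lower, against 19% of all genes (12.1% higher, 6.96% lower).

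After CCl4 the pair differed between genotypes, with knockout above wild type by 0.92 ± 0.23 on the log2 scale for Krt8 (adjusted p 0.0152) and 0.95 ± 0.26 for Krt18 (adjusted p 0.0253). Of all genes tested, 11.8% were called in that comparison and 7.62% were called higher. Krt8 groups did not overlap and Krt18 groups did, and 10.1% of all genes were higher without overlap. Krt18 was highest in knockout CCl4 replicate 3, the library with 4949 CPM of macrophage markers, and the part of other cells in its level was not tested. Without that library the CCl4 change of Krt18 in knockout was 0.69 (adjusted p 0.126); it also missed the threshold without knockout CCl4 replicate 2 (0.0727) or knockout untreated replicate 1 (0.0565), and limma-voom gave 0.54 (0.247). The Krt18 difference after CCl4 missed it without knockout CCl4 replicate 2 (0.0834) or 3 (0.201) or wild type CCl4 replicate 3 (0.0583) or 5 (0.058). The Krt8 rise in knockout was called in every fit that left out 1 sample, but its difference from wild type after CCl4 was lost without knockout CCl4 replicate 2 (adjusted p 0.093) or replicate 3 (0.0711). Whether the CCl4 effect differed between genotypes was tested directly and did not pass, at a difference of 1.27 ± 0.31 for Krt8 (adjusted p 0.0581) and 1.16 ± 0.35 for Krt18 (adjusted p 0.102). Of all genes 1.09% were called for that difference. DESeq2 called both (adjusted p 0.00623 and 0.0369), as did edgeR without knockout CCl4 replicate 1 (0.00879 for each). Untreated, 0 of 4 genes (Golm1 and the 3 keratins) were called between genotypes by edgeR, DESeq2 or limma-voom, and 0 were at an unadjusted p under 0.05 by edgeR, against 0.933% of all genes called.

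**Figure D2:**
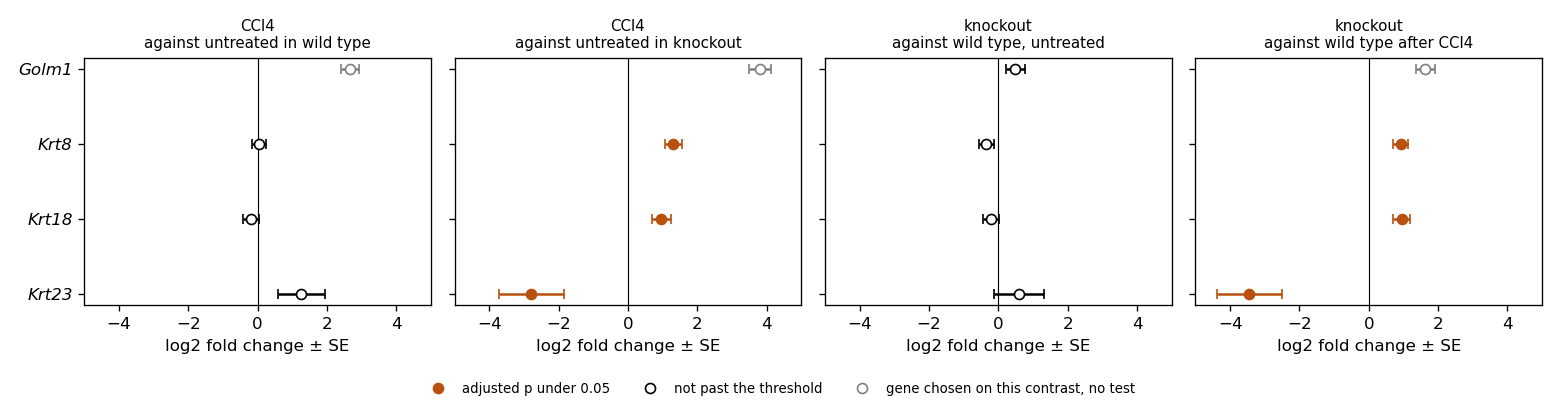
Log2 fold changes of Golm1, Krt8, Krt18 and Krt23 (points) in 4 comparisons, with standard errors as bars. Filled points passed the test. Grey points were not tested, because Golm1 was chosen on these contrasts, and their bars are not to be read as a test. Krt8 and Krt18 were near 0 in wild type with CCl4 and above 0 in knockout, and Krt23 was below 0 in knockout.

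Krt8 and Krt18, the 2 partners of 1 filament, were close to each other in level per kb of exon. The ratio of Krt8 to Krt18 on that scale was 1.08 ± 0.107 in wild type untreated, 1.26 ± 0.0924 in wild type CCl4, 0.962 ± 0.0987 in knockout untreated and 1.31 ± 0.326 in knockout CCl4. Knockout CCl4 replicates were at 1.56, 1.42 and 0.936, so the last lay inside the untreated range. Two-sided exact permutation tests gave p 0.0317 for wild type with CCl4 and 0.2 for knockout with CCl4, and none of 4 such comparisons passed after Benjamini-Hochberg adjustment (0.127 or more). The smallest p that these first 2 tests could give were 0.00794 and 0.0286.

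**Figure D3:**
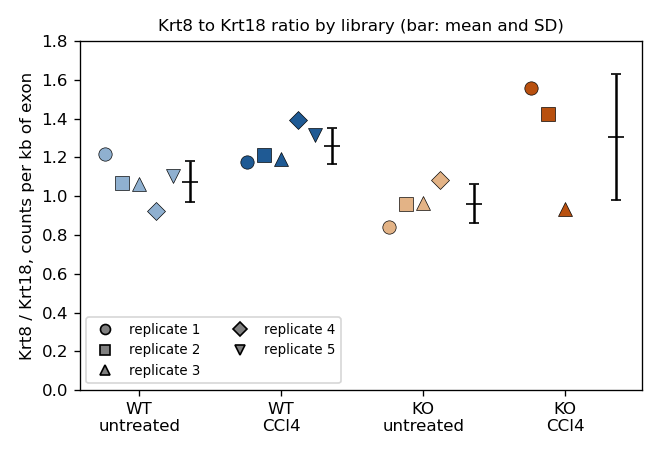
Ratio of Krt8 to Krt18 counts per kb of exon in each sample (points) by group, with mean and SD as bars. The knockout CCl4 samples spread from 0.936 to 1.56.

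Krt23 was lower with CCl4 in knockout, the other way from Krt8 and Krt18. Its counts were few, and most fits that left out 1 sample lost this call. It was at 0.403, 0.750, 0.754, 0.368 and 0.361 CPM in wild type untreated samples and at 0.499, 2.71, 0.892, 1.71 and 0.619 CPM in wild type CCl4 samples. Knockout untreated samples were at 1.71, 0.0856, 0.440 and 0.921 CPM and knockout CCl4 samples at 0.120, 0.179 and 0 CPM. The 3 knockout CCl4 samples held 7 counts in all. They lay below every wild type CCl4 sample, as did 7.97% of all genes, but knockout untreated replicate 2 was lower than 2 of them. In wild type CCl4 samples the spread was wide and the log2 difference of 1.26 ± 0.68 did not pass (adjusted p 0.408).

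In knockout CCl4 the Krt23 log2 change was -2.79 ± 0.94 (adjusted p 0.0476). Pooled counts over pooled scaled library totals were 0.134 times those of knockout untreated (counting interval 0.0515 to 0.293, which covers counting error only). Replicate 1 held 39 of the 59 knockout untreated counts, and without it the log2 change was -2.06 (edgeR adjusted p 0.161). Against wild type CCl4 the log2 difference was -3.45 ± 0.94 (adjusted p 0.0254), and 4.21% of all genes were called lower. The pooled counts on that scale were 0.102 times those of wild type CCl4 (0.0402 to 0.216). The difference of CCl4 effects was -4.05 ± 1.16 and did not pass (adjusted p 0.0841). The call in knockout missed the threshold in 14 of the 17 fits that left out 1 sample (adjusted p 0.0226 to 0.161 over the 17) and with limma-voom (0.256), and it rests on 7 counts after CCl4. Krt23 passed the filter on low counts only with the wild type samples included, and not in the knockout samples alone. The difference after CCl4 missed it without wild type CCl4 replicate 2 (0.0592) or knockout CCl4 replicate 1 (0.0509) or 3 (0.12).

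Per kb of exon the pair stood far above the other keratins. Group means were 88.6 to 219 CPM per kb for Krt8 and 91.4 to 179 for Krt18, against 0.0636 to 0.821 for Krt23. Golm1 went from 0.529 to 10.5 CPM per kb between wild type untreated and knockout CCl4, and Ly6d from 0.0288 in knockout untreated to 75.3 in knockout CCl4. Of 18 keratin genes in the table, 4 passed the filter: the 3 above and Krt10, which stayed at group means of 1.13 to 1.63 CPM and was called in no comparison. The ductal keratins Krt19 and Krt7 were at group means of at most 0.367 CPM, and Krt19 was at 0 in every knockout untreated sample. Across the 17 samples the genes nearest to Krt8 were Pgd, Mcm5, Ddx39, Tuba1b and Tyms (Pearson r 0.914 to 0.924), of which Mcm5 and Tyms are known from DNA replication. Those nearest to Krt18 were Zfp385a, Cndp2, Krt8, Tuba1b and Dcaf15 (0.863 to 0.933). Those nearest to Krt23 were Ces1c, Armc1, Snap29, Cdadc1 and 1600012H06Rik (0.799 to 0.842), and these values too largely follow the groups. Krt80, named after its values were seen, was at 0 counts in the other groups and at 28 counts in knockout CCl4.

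Genes that surround these proteins in the cell were followed in lists. In wild type, 0 of 83 listed genes tested were called with CCl4 by edgeR, where 0.853% of all genes were, so the count is near the background. At an unadjusted p 11 were under 0.05, and DESeq2 and limma-voom called 1 each. In knockout 12.1% of all genes were called higher, to be read beside each count that follows. There, 5 of 8 tested genes of the Ly6 and uPAR family were called higher: Gpihbp1 (log2 change 4.81), Ly6a (3.52), Lynx1 (2.75), Plaur (the urokinase receptor) and Ly6c1. Plaur held 3 counts in all in knockout untreated and 172 in knockout CCl4, and Ly6c1 5 and 81. Both passed the filter on low counts only through the knockout CCl4 samples, so no fold is given and their calls support nothing. Lynx1 held 10 counts in all in knockout untreated and 70 in knockout CCl4, so its fold rests on few counts. With Plaur and Ly6c1 included, the list median was 3.14 against 0.01 over all genes. Ly6e, the most abundant member, went from 320 to 588 CPM and was not called. Among 18 keratin anchors and other filament genes 5 were called higher, beside 12.1% of all genes. They were Vim, the mesenchymal filament protein vimentin (6.84), the desmosome and cornified envelope genes Pkp1 and Ppl (3.11 for Ppl), and the lamins Lmnb1 (1.85) and Lmna (1.28). Pkp1 held 5 counts in all in knockout untreated and 101 in knockout CCl4. It too passed the filter only through the knockout CCl4 samples, so no fold is given and its call supports nothing. The list median was 0.20.

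Of 18 genes of Mallory-Denk bodies and keratin stress 2 rose and 1 fell, near the 12.1% and 6.96% of all genes. Nqo1 (2.69) and Tgm2 (1.72), the transglutaminase that cross-links keratins, rose and Hspb1, a small heat shock protein, fell by 1.97. Sqstm1, the p62 protein of these bodies, was at -0.19 (adjusted p 0.542). Of 26 Golgi genes 2 rose, Tmem165 (1.54) and Mgat5 (1.26), a share near the 12.1% of all genes. Of 9 injury and tumour markers 5 rose, beside the same 12.1%: Cd44 (7.89), Lcn2 (7.06), Akr1b8 (4.01), Afp (3.74) and Tnfrsf12a (1.79), the receptor Fn14. Cd44 held 4 counts in all in knockout untreated and 726 in knockout CCl4, and Akr1b8 17 and 187, so these folds rest on few counts. The medians of these lists were 0.04, 0.14 and 1.79.

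**Figure D4:**
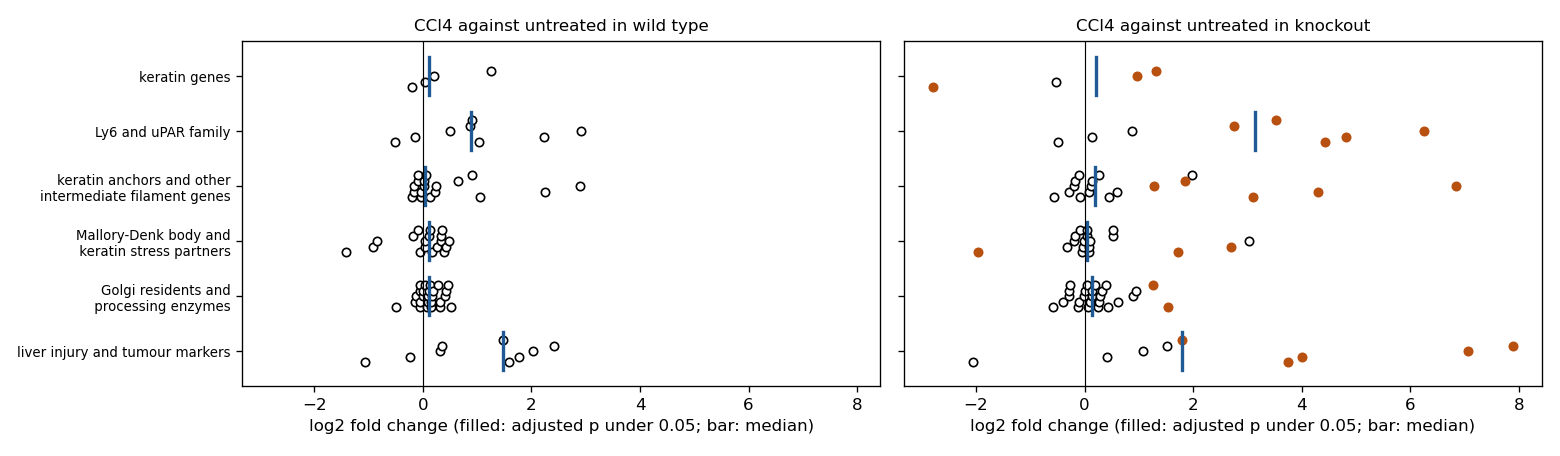
Log2 change with CCl4 of every tested gene in each list (points, filled where adjusted p was under 0.05), in wild type and knockout, with list medians as bars. Most Golgi and Mallory-Denk body genes lay near 0, and Ly6 family and injury genes lay higher in knockout.

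After CCl4, 18 of 83 listed genes were called between genotypes, where 11.8% of all genes were. Among them the log2 difference of knockout from wild type was 1.71 for Tgm2 and -1.08 for the chaperone gene Hspa8, which was also at -0.81 untreated (adjusted p 0.24). Untreated, where 0.933% of all genes were called, Ppl was the 1 listed gene called, at -1.44 ± 0.33 on the log2 scale (adjusted p 0.0496), and it was lost in 13 of the 17 fits that left out 1 sample. For the difference of CCl4 effects 4 were called, beside 1.09% of all genes, namely Ppl, Lcn2, Cd44 and Tnfrsf12a. Several of the genes that rose in knockout, such as Vim, Cd44 and Ly6a, are also expressed by macrophages, stellate or endothelial cells. Tested markers of these cells were called higher with CCl4 in knockout for 14 of 14, 8 of 9 and 11 of 12 genes, beside 12.1% of all genes. Of 12 listed stellate markers, 9 passed the filter. Several markers held few counts in knockout untreated (Gpnmb 6, Vsig4 7 and Col3a1 2 in all), so these counts of calls are a description only. Summed endothelial markers were at 145, 110 and 1021 CPM in knockout CCl4 replicates 1, 2 and 3 and at 24.7 to 33.8 in knockout untreated. Stellate markers were at 82.5, 101 and 211 against 6.98 to 10.6 in knockout untreated. Without knockout CCl4 replicate 3, 16 listed genes were called in knockout, against 23, and 4 between genotypes after CCl4, against 18. The Ly6 and uPAR family then had 2 calls in knockout, against 5. The part of these cells in the list changes was not tested.

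**Figure D5:**
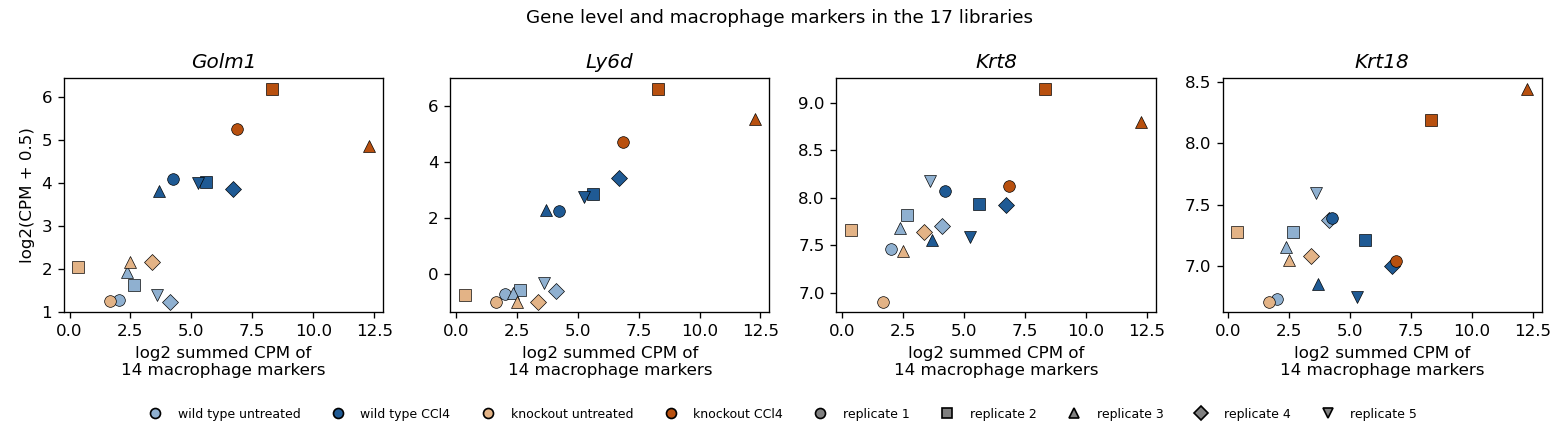
Golm1, Ly6d, Krt8 and Krt18 as log2(CPM + 0.5) against the log2 of summed CPM of 14 macrophage markers, 1 point per sample, with colour for group and shape for replicate. Golm1 was at 28.5 CPM in the knockout CCl4 library with the highest macrophage sum (4949) and at 72.6 CPM in that with 317.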

How the data were processed

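RNA sequencing was done on 17 samples. The authors deposited 1 table of whole-number counts per gene. Per the submitters' processing notes, STAR 2.4.1d, mm10, FastQC, DESeq2, edgeR and limma were used, with no roles given. No counting tool, strand setting or annotation release was given in the sources used here, so reads of overlapping genes may be shared. Counts were tested in R 4.3.3 with edgeR 4.0.16 in 1 fit of all 17 samples with a mean per group, TMM scaling and the quasi-likelihood test, after filterByExpr (minimum count 10, minimum total 15). P-values were adjusted by Benjamini-Hochberg over the 13721 genes tested, and genes were called under 0.05. The code was tested on simulated data. The alternatives used limma 3.58.1, DESeq2 1.42.0, other scalings and filters, left-out samples and a replicate block.

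CPM used TMM-scaled totals, and marker sums were sums of that CPM. Tests planned for Golm1 between genotypes after CCl4 and for Ly6d untreated were dropped, because of how the genes were chosen and kept. The 5 genes and all lists were chosen with earlier results of these data known. Named from lists were up to 4 tested genes with the smallest adjusted p in a comparison and up to 3 with the highest mean CPM. Called genes named beyond that rule were chosen after their values were seen. Likeness used log2(CPM + 0.5). No pair of replicate columns was a split of 1 library (lowest chi-square per gene 23.4). Same-numbered samples deviated with correlations of -0.302 to 0.231, and the labels state no pairing.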

Additional observations from a re-analysis of the deposited data

Results flagged for a closer look

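Ly6d in knockout untreated replicate 2 was at 0.0856 CPM, a single count, against 0 counts in the other 3 samples of the group. With the others at exactly 0, 1 count is enough to be set apart, so this says nothing about the sample. Chance sets apart about 1 in 20 groups by this rule.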

How the results depend on the processing

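Of 513 pairs of a tested value and an alternative, 455 kept direction and side of the threshold, 48 lost the call, 6 gained it and 4 turned. This tally still holds the pairs of the dropped tests, which support nothing. In that tally Golm1 between genotypes after CCl4 stayed on 1 side in 12 of 12 alternatives and in 17 of 17 fits without 1 sample. Ly6d untreated did so in 10 of 11 and in 17 of 17. Neither count is read as support, because of how the genes were chosen and kept. Krt8 with CCl4 in knockout (1.05 to 1.54) kept direction and call in every alternative run, and Golm1 in knockout against wild type after CCl4, given with no test, ran from 1.14 to 1.88. The cause of each change below was not tested. Krt23 with CCl4 in knockout missed the threshold with RLE factors (-2.76), library totals (-2.61), no filter (-2.79), voom (-2.18), the replicate block (-2.92), exact permutation (-0.95) and without both libraries over 30% mitochondrial counts (-2.35). Krt18 in that comparison missed it with voom (0.54), 2 groups only (0.99), permutation (0.86) and without both libraries (0.69). After CCl4 between genotypes, Krt8 missed it with voom (0.72), 2 groups only (0.89) and without both libraries (0.90). Krt18 did so with voom (0.52), 2 groups only (0.92), the replicate block (0.90), permutation (0.85) and without both libraries (0.67), and Krt23 with voom (-2.58), the block (-3.67) and without both libraries (-3.01). The replicate block changed no other call of a single gene, and its numbers pair nothing per the labels. The difference of CCl4 effects passed with DESeq2 for Krt8 (1.29), Krt18 (1.19) and Krt23 (-4.12). Library totals moved the median of all genes by 0.363 in wild type with CCl4, and Krt18 there turned to 0.21. For Ly6d untreated, exact permutation gave 0.00794, the smallest p that 5 against 4 samples can give, and it supports nothing at 11 against 1 counts in a gene kept only through the CCl4 samples. Listed genes called in wild type with CCl4 were 3 with totals and 1 each with DESeq2, voom and without both libraries, against 0. Untreated they were 0 with totals or no filter and 3 with DESeq2, against 1. After CCl4 between genotypes they were 10 with voom and 7 without both libraries, against 18. For the difference they were 14 with DESeq2 and 0 with totals, no filter, voom or without both libraries, against 4. Leaving out 1 sample at a time gave these lowest and highest values. With CCl4 in wild type Krt8 ran from -0.0305 to 0.16, turning to -0.0305 without wild type untreated replicate 1 and to -0.0251 without wild type CCl4 replicate 1. In knockout Krt18 ran from 0.69 to 1.27 and Krt23 from -3.48 to -2.06. Untreated, Krt23 ran from -0.14 to 0.95, turning without knockout untreated replicate 1 (-0.14). After CCl4 between genotypes Krt8 ran from 0.66 to 1.14, Krt18 from 0.67 to 1.25 and Krt23 from -4.15 to -3.0. The difference of effects ran from 1.01 to 1.49 for Krt8 and 0.88 to 1.46 for Krt18. Listed genes called ran from 0 to 1 in wild type, 16 to 24 in knockout, 0 to 1 untreated, 4 to 19 after CCl4 and 0 to 11 for the difference. Fits of the 2 compared groups only could not be made for Krt23 in knockout or untreated, nor for Ly6d untreated, which were below the filter there.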
